A study of Mus musculus with 20 samples.

Results

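The Cyp4 genes encode cytochrome P450 enzymes that hydroxylate fatty acids, and 8 of them were followed by family name: Cyp4f13, Cyp4f14, Cyp4f15, Cyp4f16, Cyp4f17, Cyp4f18, Cyp4x1 and Cyp4v3. A gene had a value where the platform annotation gave a probe set its symbol alone, and the brightest such probe set over all arrays stood for it. By that rule 6 of the 8 had a value, out of 18704 genes on the array, and 5 of these 6 were among the 14129 genes tested, the sixth, Cyp4f18, being too dim. Cyp4f17 and Cyp4v3 were skipped, the latter because its probe set also carries the symbol of Klkb1. The family is taken as selected on the 4-day celastrol difference of Cyp4f15, which was already known. Values of that comparison are therefore given as a description, with no test. Whether values of the earlier times also entered the selection is not known. Tests that use those times are thus not shown to be independent of it, and their p for Cyp4f15 may be too small.

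The series holds 20 Affymetrix arrays of hypothalamus RNA from male C57BL/6J mice made obese by a diet with 45% fat, which they began at 4 weeks of age and ate for 16 weeks. All mice carried this diet-induced obesity, and no lean or untreated group was compared here. They received intraperitoneal celastrol, a plant triterpenoid, or the solvent dimethyl sulfoxide (DMSO) as control, for 6 h, 1 day or 4 days. Each time had 3 DMSO arrays, and celastrol had 4 arrays at 6 h and at 1 day but 3 at 4 days. Daily DMSO was 25 µl per the labels, which state a celastrol dose, 250 µg/kg, for 6 h but not for the later times. Arrays within a group are labelled as biological replicates, and whether RNA was pooled over mice is not said. Each value is a log2 intensity of bulk tissue, in which fewer cells of a type and less RNA per cell cannot be told apart.

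CYP4 enzymes add a hydroxyl group at or near the far (omega) end of fatty acids and of signalling lipids made from them, and draw their electrons from NADPH-cytochrome P450 reductase. The Cyp4f enzymes act on arachidonic acid, leukotriene B4 and related lipids, so that they can both make and inactivate lipid mediators. In brain, arachidonic acid released from membranes feeds several families of oxygenases, of which CYP4 is one.

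Hypothalamus markers were present, as 15 of 16 listed genes had a probe set and none of the 15 was dim. On the first principal component of the values within groups, DMSO replicate 3 at 6 h scored 11.4 and DMSO replicate 3 at 1 day 9.61, while the other arrays scored -6.13 to 5.32. Both thus stood apart, and results are also given without them. Differences are celastrol minus DMSO, or later minus earlier, on the log2 scale, each with its standard error. A gene was called where the adjusted p of limma's moderated test was under 0.05.

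Most of the Cyp4f genes lie in 1 cluster on mouse chromosome 17. The 300 bases around the start of 4 of them, 250 before it and 50 from it on, are printed because Cyp4f15 was called at 1 day and Cyp4f13, Cyp4f14 and Cyp4f16 are its tested relatives in the same cluster. The windows are from RefSeq on build GRCm38.p6 and run 5′ to 3′ along each gene, with ATTGG, the reverse complement of CCAAT, in capitals. They lie at chr17:32947312-32947611 on the minus strand for Cyp4f13, chr17:32917307-32917606 on the minus strand for Cyp4f14, chr17:32685409-32685708 on the plus strand for Cyp4f15 and chr17:32536307-32536606 on the plus strand for Cyp4f16.
Cyp4f13: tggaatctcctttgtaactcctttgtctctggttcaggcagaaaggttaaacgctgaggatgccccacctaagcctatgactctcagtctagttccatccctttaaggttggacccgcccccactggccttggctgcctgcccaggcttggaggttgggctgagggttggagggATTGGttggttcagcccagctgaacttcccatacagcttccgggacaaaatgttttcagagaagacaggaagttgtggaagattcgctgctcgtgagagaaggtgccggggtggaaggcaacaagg
Cyp4f14: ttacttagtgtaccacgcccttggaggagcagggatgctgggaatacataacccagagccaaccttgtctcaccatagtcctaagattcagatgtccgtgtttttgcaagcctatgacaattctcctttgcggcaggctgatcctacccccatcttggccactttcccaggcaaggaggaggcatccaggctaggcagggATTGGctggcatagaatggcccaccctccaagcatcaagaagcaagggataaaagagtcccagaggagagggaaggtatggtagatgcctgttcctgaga
Cyp4f15: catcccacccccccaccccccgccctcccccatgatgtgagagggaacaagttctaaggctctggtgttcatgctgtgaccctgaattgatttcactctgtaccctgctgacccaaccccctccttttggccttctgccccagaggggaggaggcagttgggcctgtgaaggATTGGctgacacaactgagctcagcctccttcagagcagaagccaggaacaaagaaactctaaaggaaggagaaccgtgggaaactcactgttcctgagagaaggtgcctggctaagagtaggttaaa
Cyp4f16: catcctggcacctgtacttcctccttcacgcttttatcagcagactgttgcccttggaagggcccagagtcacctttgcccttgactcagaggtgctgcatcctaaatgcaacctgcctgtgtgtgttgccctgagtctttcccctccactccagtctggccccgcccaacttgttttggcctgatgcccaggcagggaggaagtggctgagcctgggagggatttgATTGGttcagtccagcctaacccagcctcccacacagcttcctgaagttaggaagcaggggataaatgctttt

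CCAAT, the core of the CCAAT box that the factor NF-Y binds, was searched on both strands after the sequences had been read. It was found as ATTGG in each of the 4 windows, beginning 76 bases before the start in Cyp4f13, 50 in Cyp4f14, 78 in Cyp4f15 and 23 in Cyp4f16, and also in the window of Cyp4f18. Of all 32851 windows of this length, 37.4% hold it on either strand. The longer motif GATTGG, which contains it, was in all 5 windows and in 16.1% of all windows. The TATA motif TATAAA was in 0 of the 5 and in 13.6% of all windows. The half-site of a glucocorticoid response element, AGAACA, was in 0 of the 5 and in 19.0% of all. The half-site of many nuclear receptors, AGGTCA, was in 0 of the 5 and in 16.3% of all. The longest run shared by the Cyp4f13 and Cyp4f15 windows was tgagagaaggtgcc, 14 bases long and 17 bases after the start in both. Each searched motif found in the Cyp4f15 window was thus also in the windows of its relatives.

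Over the 4 groups of 6 h and 1 day, the group means of Cyp4f15 spanned 0.33, against a pooled SD within groups of 0.09, and those of the other 5 genes spanned 0.05 to 0.18. At 1 day the 3 DMSO arrays read 9.14, 9.20 and 9.28, and the 4 celastrol arrays 9.57, 9.56, 9.46 and 9.57. All 4 celastrol arrays were above all 3 DMSO arrays.

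Cyp4f15 rose by 0.33 ± 0.066 at 1 day, from 9.21 ± 0.066 (SD, n = 3) to 9.54 ± 0.055 (SD, n = 4), with a 95% interval of 0.20 to 0.47 (limma adjusted p = 0.0278). Whether values of 1 day also entered the selection of Cyp4f15 is not known, so this p may be too small. The difference is a 1.26-fold higher level. Of the 5 tested Cyp4 genes it alone was called, where 60 genes or 0.425% of all were called, 51 higher and 9 lower (after median centring of the arrays 38 higher and 18 lower, after a second quantile normalization 45 higher and 19 lower). Of all genes 7.81% had arrays that did not overlap at 1 day, and 0.814% had a larger difference than Cyp4f15 in either direction. The call ended without any 1 of the 3 DMSO arrays of 1 day (adjusted p = 0.185 without replicate 1, 0.126 without replicate 2 and 0.0570 without replicate 3) or without celastrol replicate 1 (0.0755), 2 (0.0841) or 4 (0.0690). Without both arrays that stood apart the difference was 0.37 (adjusted p = 0.0448).

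At 6 h the order of the groups was the opposite. The DMSO arrays read 9.48, 9.64 and 9.47, and the celastrol arrays 9.39, 9.30, 9.46 and 9.17. The celastrol arrays were all below the DMSO arrays, though the highest celastrol array and the lowest DMSO array were nearly level. The difference was -0.20 ± 0.066 (95% interval -0.34 to -0.06) and was not called (limma adjusted p = 0.582). At 6 h 0 genes, or 0% of all, were called, 1067 had an unadjusted p under 0.05 in limma, and 6.35% of all genes had arrays that did not overlap. Without both arrays that stood apart the difference was -0.23 (adjusted p = 0.999).

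Cyp4f15 is taken to have entered with the comparison at 4 days. There the DMSO arrays read 9.11, 9.22 and 9.14 and the celastrol arrays 9.58, 9.43 and 9.65. Again no celastrol array overlapped a DMSO array. The difference was 0.40 ± 0.071. Over all genes 9, or 0.0637%, were called at 4 days and 14.4% had arrays that did not overlap, and nothing is read from the Cyp4f15 values against these shares.

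Under DMSO the Cyp4f15 values of 6 h lay apart from those of 1 day. The 3 DMSO arrays of 1 day lay between 9.14 and 9.28, below the 3 of 6 h, which lay between 9.47 and 9.64. From 6 h to 1 day the DMSO difference was -0.33 ± 0.071 (95% interval -0.47 to -0.18) and was not called (limma adjusted p = 0.0663), where 14 genes or 0.0991% of all were called and 14.4% had arrays that did not overlap. It passed with an intensity trend (adjusted p = 0.0308), array weights (0.0481) or a stricter filter on dim genes (0.0442), and was -0.39 (0.192) without both arrays that stood apart. It did not pass with only the groups compared (0.398), and 0 of 20 fits without 1 array passed (adjusted p up to 0.219). With the replicate number as a block in these groups the difference was -0.33 (adjusted p = 0.0519), and 59 genes were called. Under celastrol the difference from 6 h to 1 day was 0.21 ± 0.061 (95% interval 0.08 to 0.34, limma adjusted p = 0.114). It was not called, where 19 genes or 0.134% of all were called and 10.2% had arrays that did not overlap. The celastrol arrays of 6 h and 1 day overlapped, both reaching 9.46.

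In ascending order of mean, Cyp4f15 stood at 9.16 in DMSO at 4 days, 9.21 in DMSO at 1 day, 9.33 in celastrol at 6 h, 9.53 in DMSO at 6 h, 9.54 in celastrol at 1 day and 9.55 in celastrol at 4 days. Of the neighbours in this order, the pair of celastrol and DMSO at 6 h had arrays that did not overlap, and the arrays of each other neighbouring pair did. Celastrol arrays of 1 day, between 9.46 and 9.57, thus overlapped the DMSO arrays of 6 h, between 9.47 and 9.64.

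The celastrol difference at 1 day exceeded that at 6 h by 0.53 ± 0.094 for Cyp4f15 (95% interval 0.34 to 0.73). It was not called (limma adjusted p = 0.0793) and had the 3rd smallest p of the genes tested. The test of this difference called 1 gene, 0.00708% of all, namely Fabp7, a fatty acid binding protein of glial cells, at -0.66 (adjusted p = 0.0201). For Cyp4f15 it passed with an intensity trend (0.0314), array weights (0.0349) or without celastrol replicate 3 at 6 h (0.0420), and not without both arrays that stood apart (0.179).

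**Figure D1:**
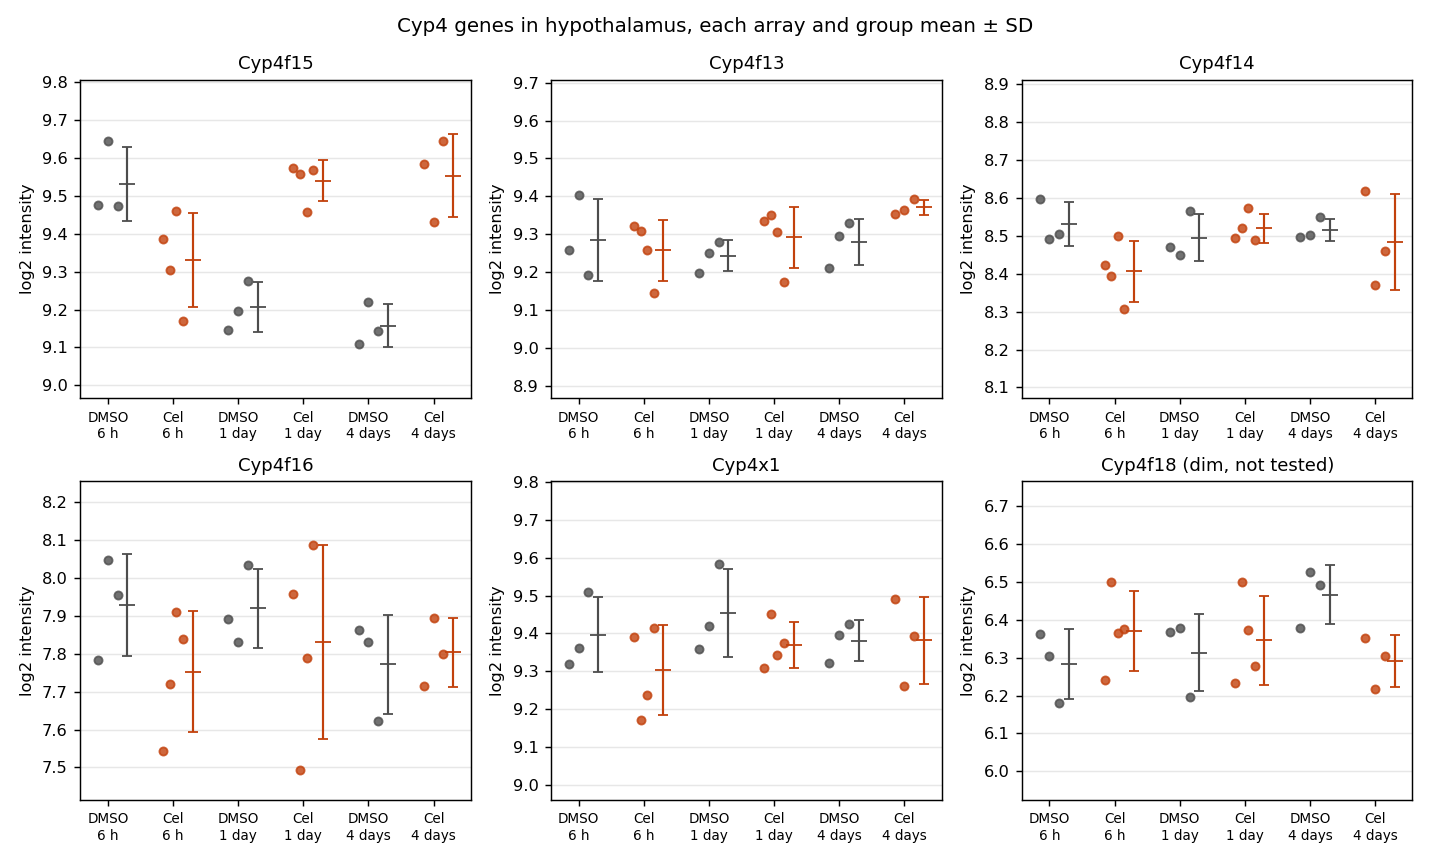
Log2 intensity of the 6 Cyp4 genes on each of the 20 arrays by group (grey DMSO, orange celastrol; Cel is celastrol), with the group mean ± SD beside the points. Each panel spans the same log2 range around its gene, and the Cyp4f15 values run from 9.11 to 9.65. Celastrol and DMSO points do not overlap for Cyp4f15 at 6 h and 1 day (6.35% and 7.81% of all genes). At 4 days, taken as the selecting comparison, they do not overlap for Cyp4f15, Cyp4f13 and Cyp4f18 (14.4%).

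Markers of other tissue, and some of hypothalamus, moved with some of these comparisons. The summed intensity of 6 thalamus markers was 8894 to 11299 in DMSO arrays of 6 h, 8178 to 8865 in celastrol arrays of 6 h and 8377 to 8685 in DMSO arrays of 1 day. Their mean log2 intensities per array, 10.10 to 10.56 in DMSO and 9.94 to 10.13 in celastrol arrays of 6 h, overlapped. All 6 were lower in celastrol than in DMSO at 6 h, with a median of -0.28, and 5 of 6 were lower in DMSO at 1 day than at 6 h, with a median of -0.34, none called in either. In limma 5 of the 6 had an unadjusted p under 0.05 in each comparison, as had 1067 and 1772 of all 14129 genes. The 6 endothelial markers summed to 3243 to 3915 in DMSO and 3027 to 3254 in celastrol arrays of 6 h, with 6 of 6 lower (median -0.11), and 5 of 6 were higher in DMSO at 1 day than at 6 h (median 0.19), none called. Prkcd, a kinase gene strongly expressed in thalamus, stood at 9.97 ± 0.66 (SD, n = 3) in DMSO at 6 h and 8.97 ± 0.089 (SD, n = 3) in DMSO at 1 day. Its limma adjusted p for that difference was 0.0627, beside 0.0663 for Cyp4f15. Of the 15 hypothalamus markers 9 were higher in DMSO at 1 day than at 6 h (median 0.06), none called. In limma 6 of these 15 had an unadjusted p under 0.05 there. Between celastrol and DMSO 1 had one at 6 h and 2 at 1 day. The part of these markers in the Cyp4f15 values that use the 6 h arrays was not tested.

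At 1 day the thalamus list differed little, with 3 of 6 higher, a median of -0.01 and sums of 8377 to 8685 in DMSO and 8338 to 8936 in celastrol arrays. The 6 endothelial markers summed to 3837 to 4155 in DMSO and 3159 to 3766 in celastrol arrays at 1 day, with 4 of 6 lower and 1 called, the tight junction gene Cldn5 at -0.61 ± 0.10 (limma adjusted p = 0.00857). Mean log2 intensities of these endothelial markers per array, 9.03 to 9.11 in DMSO and 8.78 to 9.04 in celastrol arrays, overlapped. The 6 astrocyte markers summed to 21939 to 22990 in DMSO and 21393 to 21786 in celastrol arrays, with 2 of 6 higher, a median of -0.04 and none called. Their mean log2 intensities per array, 11.40 to 11.50 in DMSO and 11.39 to 11.43 in celastrol arrays, overlapped. The 5 oligodendrocyte markers with a probe set had array means of 11.12 to 11.30 in DMSO and 10.94 to 11.12 in celastrol arrays, which were nearly level at the edge but did not overlap, with 4 of 5 lower, a median of -0.11 and none called, and their summed intensities, 14348 to 15913 and 14053 to 15057, overlapped. The 6 pituitary markers, 2 of them dim, summed to 1156 to 2193 in DMSO and 911 to 1850 in celastrol arrays, with 4 of 4 tested lower, a median of -0.32 and none called. The only red cell gene of 3 with a probe set stood at 8.32 to 8.46 in DMSO and 8.49 to 8.90 in celastrol arrays. Microglia markers, 8 of 9 with a probe set and 1 of these dim, summed to 6836 to 7281 in DMSO and 6713 to 7752 in celastrol arrays and overlapped. At 4 days the neutrophil and blood leukocyte markers, 6 of 10 of them dim, summed to 1189 to 1230 in DMSO and 1279 to 1374 in celastrol arrays. Of their 4 tested genes 2 were higher, with a median of 0.03 and 1 called. The 6 choroid plexus markers then summed to 1216 to 1288 in DMSO and 1142 to 1196 in celastrol arrays, with 1 of 6 higher. Of endothelial markers 0 of 6 were higher (median -0.18) and of oligodendrocyte markers 1 of 5 (median -0.15). Of 4 tested pituitary markers 0 were higher (median -0.17), and these lists held no call. The part of these markers in the Cyp4f15 differences was not tested.

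The other 4 tested members differed by less than Cyp4f15 at 1 day, and none was called at 6 h or 1 day, while 1 of the 4 had an unadjusted p under 0.05 in limma at 6 h and 0 at 1 day. Cyp4f14, which inactivates leukotriene B4 in mouse, read 8.60, 8.49 and 8.50 on the DMSO arrays of 6 h and 8.42, 8.39, 8.50 and 8.31 on the celastrol arrays. The groups overlapped, at the highest celastrol array. The difference was -0.12 ± 0.056, with a 95% interval of -0.24 to -0.01 and an unadjusted p of 0.0365 in limma (adjusted p = 0.653). At 1 day it was 0.02 ± 0.056, with a 95% interval of -0.09 to 0.14 (adjusted p = 0.95).

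Cyp4f13, a paralog in the same cluster, lay between 9.14 and 9.40 over all 20 arrays. Its difference was -0.03 ± 0.056 at 6 h (95% interval -0.14 to 0.09) and 0.05 ± 0.056 at 1 day (95% interval -0.07 to 0.17). At 4 days its celastrol arrays, between 9.35 and 9.39, did not overlap the DMSO arrays, between 9.21 and 9.33, as held for 14.4% of all genes at that time.

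Cyp4f16, the nearest tested Cyp4f neighbour of Cyp4f15, was the most variable member, with a pooled SD within groups of 0.17. At 1 day its DMSO arrays lay between 7.83 and 8.04 and its celastrol arrays between 7.49 and 8.09, so that the celastrol group enclosed the DMSO group. Its difference was -0.18 ± 0.11 at 6 h and -0.09 ± 0.11 at 1 day, with a 95% interval at 1 day of -0.32 to 0.15, so a difference as large as that of Cyp4f15 in the upward direction lay outside it.

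Cyp4x1, a CYP4 enzyme known for its high expression in brain, lay between 9.17 and 9.58 over all arrays. Its difference was -0.09 ± 0.070 at 6 h (95% interval -0.24 to 0.05) and -0.08 ± 0.070 at 1 day (95% interval -0.23 to 0.06), with groups that overlapped at both times. From 6 h to 1 day the DMSO differences of these 4 genes lay between -0.04 and 0.06, and none was called.

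Cyp4f18, the leukotriene B4 hydroxylase known from mouse neutrophils, was dim at a mean of 6.35, under the 7.04 below which genes were left out. With no filter its difference was 0.09 at 6 h (limma adjusted p = 0.808) and 0.03 at 1 day (0.953). At 4 days its DMSO arrays lay between 6.38 and 6.53 and its celastrol arrays between 6.22 and 6.35, all under the dim threshold, with no overlap. That held for 14.4% of the genes tested at that time, and the share among dim genes was not computed. The probe set shared by Cyp4v3 and Klkb1 lay between 7.67 and 7.95 over all groups, and its signal cannot be assigned to either gene.

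**Figure D2:**
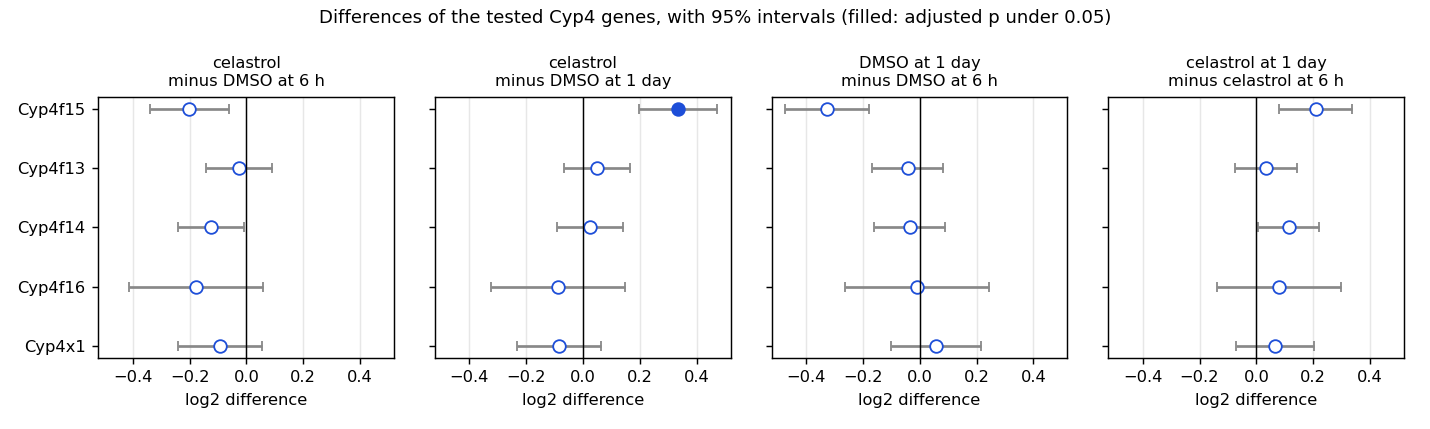
Log2 difference of the 5 tested Cyp4 genes in 4 comparisons, with 95% intervals from limma (filled points have an adjusted p under 0.05). The filled point is Cyp4f15 at 1 day, at 0.33, and the intervals of the other 4 genes at 1 day all include 0.

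The cluster on chromosome 17 gives neighbours that share a locus with Cyp4f15. From Wiz to Zfp763 the reference lists 18 protein-coding genes, of which 11 were tested, 5 were dim and 2 were not analysed here. Of the 10 tested genes other than Cyp4f15, 0 were called at 1 day and 0 had an unadjusted p under 0.05 in limma, where 0.425% of all genes were called, and their differences lay between -0.12 and 0.15 (smallest limma adjusted p = 0.650). Zfp871, the zinc finger gene next to Cyp4f15, differed by 0.00 ± 0.041 at 1 day (adjusted p = 0.995 in limma), and Zfp952, another zinc finger gene, by 0.15 ± 0.082. Zfp952 differed by -0.21 ± 0.082 at 6 h (adjusted p = 0.630 in limma) and -0.19 ± 0.087 in DMSO from 6 h to 1 day (0.374), the signs of Cyp4f15 in each case. The 10 genes lay between -0.21 and 0.01 at 6 h and between -0.19 and 0.06 in DMSO over time, with 0 called in limma in either and 2 and 1 with an unadjusted p under 0.05. The Cyp4f genes are close relatives in sequence, and how far their probe sets share signal was not tested.

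**Figure D3:**
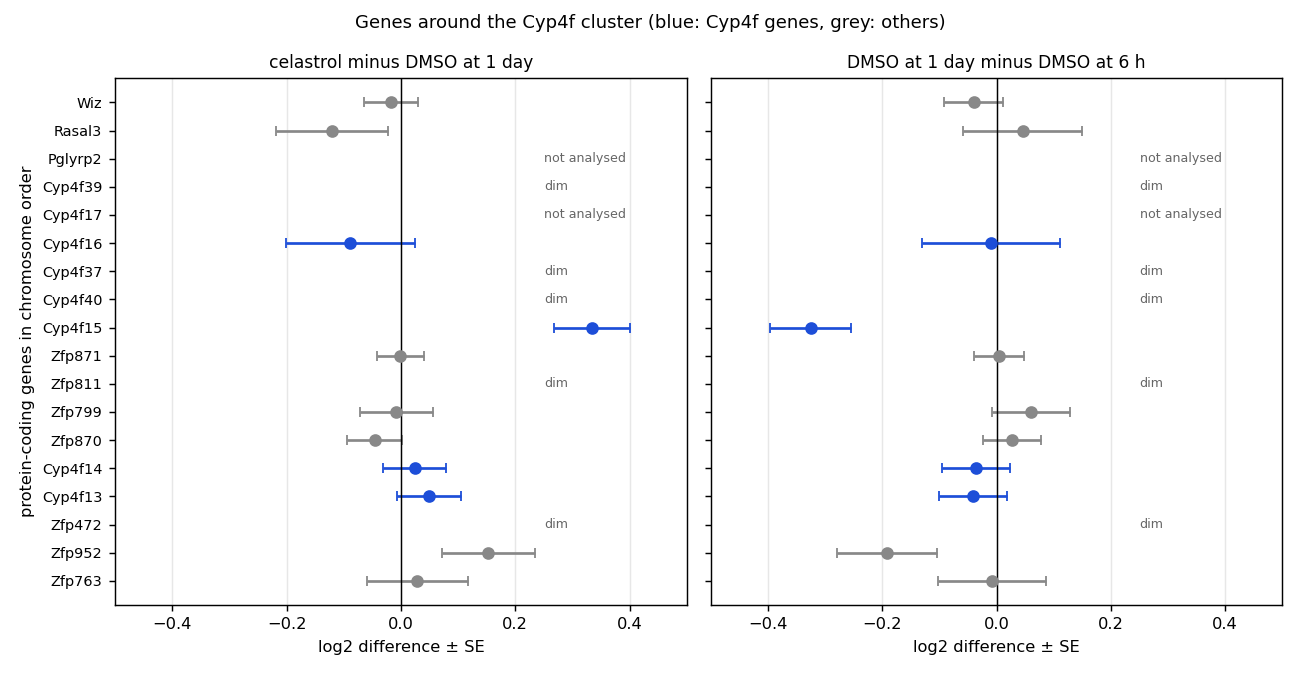
Log2 difference ± SE of the tested genes from Wiz to Zfp763 in chromosome order, at 1 day (left) and in DMSO from 6 h to 1 day (right), with Cyp4f genes in blue and genes without a test marked. Cyp4f15 stands at 0.33 on the left and -0.33 on the right, and the 10 others lie between -0.12 and 0.15 on the left and between -0.19 and 0.06 on the right.

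Further Cyp4 genes, among them the Cyp4a genes known for fatty acid omega-hydroxylation in liver and kidney, were all dim. Of 12 listed, 9 had a probe set and all 9 were dim, with means of 4.53 to 6.94. With no filter 0 of the 9 were called at 6 h or 1 day in limma, and 0 had an unadjusted p under 0.05 (smallest adjusted p = 0.697). Cyp4a10 and Cyp4a14 are classical targets of PPAR alpha in liver. Cyp4a10 differed by -0.23 ± 0.12 at 6 h and -0.12 ± 0.12 at 1 day. Cyp4a14 differed by 0.10 ± 0.13 at 6 h and -0.24 ± 0.13 at 1 day.

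Genes that act beside the CYP4 enzymes showed no called difference at 6 h or 1 day. The lists, drawn up by known function, held 58 tested genes, of which 0 were called at 6 h (5 with an unadjusted p under 0.05 in limma) and 0 at 1 day (5). Their median difference was -0.02 at 6 h and 0.00 at 1 day, beside -0.01 and 0.01 over all genes tested. At 4 days 1 of the 58 was called (limma adjusted p = 0.0413), where 0.0637% of all genes were called. It was higher in celastrol and stood in the list of fatty acid release.

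Redox partners, the cytochrome b5 genes and their reductases, were 4 tested of 5 listed, with 1 of 4 higher at 1 day and a median of -0.03. The listed gene without a value was Por, that of NADPH-cytochrome P450 reductase, which had no probe set with its symbol alone. Among 9 tested genes of fatty acid release, 6 were higher at 1 day with a median of 0.01, and Lipe, hormone-sensitive lipase, differed by 0.20 ± 0.067 (adjusted p = 0.335 in limma). Among 12 tested other oxygenases of arachidonate, 7 were higher with a median of 0.01, and Cyp2j6, an epoxygenase of the CYP2J family, differed by 0.12 ± 0.069 (adjusted p = 0.662). At 6 h Ephx2 of this list differed by -0.13 ± 0.061 (limma adjusted p = 0.658).

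The leukotriene pathway had 7 tested genes, with 4 higher at 1 day and a median of 0.01. At 6 h its receptor gene Ltb4r1, which encodes the high-affinity receptor for leukotriene B4, differed by 0.23 ± 0.080 (limma adjusted p = 0.588). Of 17 tested genes for the oxidation that follows omega-hydroxylation, 7 were higher at 1 day with a median of -0.02, and Acsl6, a brain acyl-CoA synthetase, differed by -0.10 ± 0.044 (adjusted p = 0.569). At 6 h 4 of these 17 were higher, with a median of -0.08 beside -0.01 over all genes tested. In limma 3 of them had an unadjusted p under 0.05 at 6 h, and Scp2 differed by -0.24 ± 0.084 (adjusted p = 0.602). Among 11 nuclear receptor and SREBP genes, 6 were higher at 1 day with a median of 0.00. Ppara, the fatty acid receptor that induces Cyp4a genes in liver, differed by 0.26 ± 0.061 at 1 day and was not called (limma adjusted p = 0.0825). It passed without both arrays that stood apart (adjusted p = 0.0448), with array weights (0.00724) and without DMSO replicate 2 at 6 h (0.0361). That was 1 of 20 fits without 1 array, and adjusted p reached 0.483 without DMSO replicate 2 at 1 day. Of 10 other settings 2 passed, and adjusted p reached 0.181 with only the groups compared.

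The 5 genes whose values ran closest to those of Cyp4f15 over the 20 arrays were Ssh2 (Pearson r = 0.906), Tmem74 (0.848), Ddit4 (0.831), Ttyh3 (0.814) and Fcgr3 (0.807), against a median r of 0.05 over 14128 genes. Ssh2 encodes a phosphatase of the actin regulator cofilin, and its r was 0.748 after group means were taken out. That of Tmem74 was then 0.635, of Ddit4 0.502, of Ttyh3 0.526 and of Fcgr3 0.428. At 6 h, 1 day and 4 days Ssh2 differed by -0.10, 0.18 and 0.16, in the same order of signs as Cyp4f15. Ddit4, an inhibitor of mTOR signalling, differed by -0.01, 0.68 and 0.61, and Fcgr3, an Fc receptor of microglia and other myeloid cells, by -0.10, 0.23 and 0.38. These are correlations over arrays that share the 6 groups, those of 4 days among them, and are given as a description. The 5 genes were picked by this r, so like signs and like group means follow in part from the picking.

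**Figure D4:**
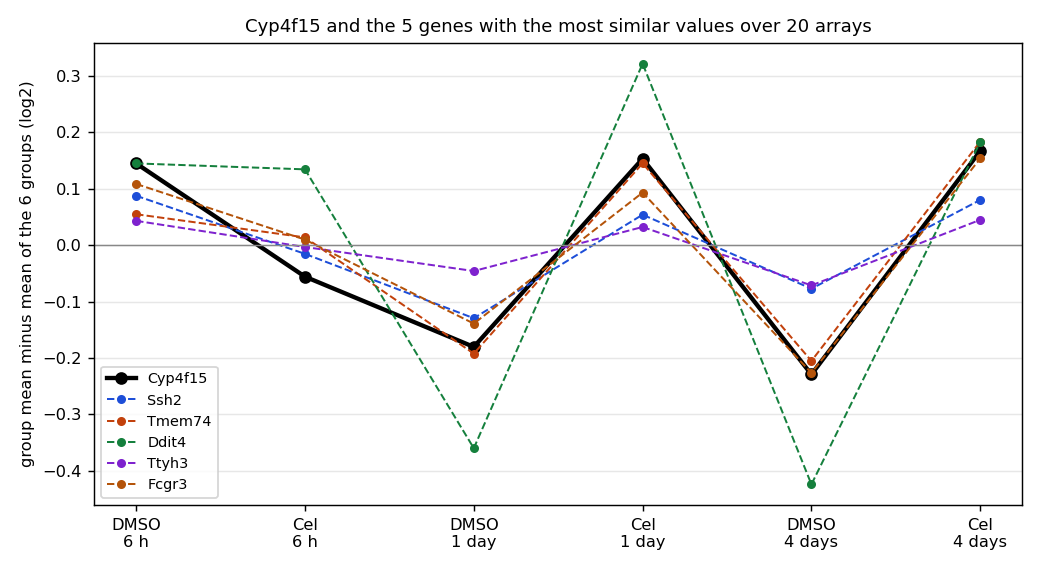
Group means of Cyp4f15 (black) and of the 5 genes with the highest Pearson r over 20 arrays, each minus its own mean of the 6 groups (log2). All 6 genes are lowest in the DMSO groups of 1 day and 4 days, and the widest span is that of Ddit4. The 5 genes were picked by this r, so their likeness to Cyp4f15 follows in part from the picking.

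The other members ran with other genes. The highest r was 0.782 for Cyp4f13, with Hint2, and 0.808 for Cyp4f14, with Prps2. It was 0.690 for Cyp4f16, with Wnt2, 0.781 for the dim Cyp4f18, with Nupr1, and 0.821 for Cyp4x1, with Samhd1. Among the members themselves, the 15 pairs had r from -0.54 to 0.51. The highest was that of Cyp4f13 with Cyp4f15, at 0.51, and the lowest that of Cyp4f16 with Cyp4f18, at -0.54. Cyp4f15 and Cyp4x1 had an r of -0.02 over the 20 arrays.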

How the data were processed

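The table the authors deposited holds log2 intensities (23492 probe sets), which the submitters' processing notes say were made with RMA (background correction, quantile normalization, probe set summary); no version or array date was found. Array medians were 8.60 to 8.65. Of the probe sets, 20228 carried 1 gene symbol, 1399 several and 1865 none. The brightest single-symbol probe set stood for a gene, and genes under the 25th percentile of mean intensity (7.04) were left out as dim. For arrays, their number limits the precision.

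Differences were tested two-sided with limma 3.58.1 in R 4.3.3, in 1 model with a mean for each of 6 groups, eBayes and Benjamini-Hochberg adjustment over 14129 genes, at a threshold of 0.05. The procedure was tested on simulated data. All members are named; up to 3 genes of a pathway list are named, from those with the smallest unadjusted p at 6 h or 1 day. Prkcd, Cldn5, Fabp7 and Zfp952 were named after their values were seen. Members and lists were chosen with earlier results of these data known. Alternatives changed the normalization, filter, probe set choice, variance model, arrays and replicate block; leaving out both arrays that stood apart, fitting 6 h and 1 day alone, and a block for DMSO of 6 h and 1 day were added after seeing the data. The labels state no shared batch, but same-numbered DMSO arrays of 6 h and 1 day deviated together (residual correlations of 0.236 to 0.518, different numbers -0.412 to 0.273), so a block is given beside that comparison; celastrol and DMSO arrays of a time did not (-0.288 to 0.287). Promoter windows are from RefSeq; Cyp4x1 and Cyp4f17 had no entry. Gene order came from RefSeq's GRCm38.p6.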

Additional observations from a re-analysis of the deposited data

Results flagged for a closer look

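The lowest of the 4 celastrol arrays of 1 day for Cyp4f15, replicate 3 at 9.46, lay far from the other 3, which were between 9.56 and 9.57. Of 12 sets of 4 arrays looked at for a far array, 1 had one, and chance gives about 1 in 20. Without that array the 1-day call stayed.

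For Cyp4f15 every celastrol array was below every DMSO array at 6 h and above every DMSO array at 4 days. Arrays did not overlap for 6.35% of all genes at 6 h and 14.4% at 4 days. The difference at 4 days exceeded that at 6 h by 0.60, and this difference between times was not tested. Cyp4f15 is taken as selected on the 4-day comparison, so nothing is read from this gap.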

How the results depend on the processing

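For Cyp4f15, 144 of 156 values over the 5 tested comparisons kept their direction and their side of the threshold, and 0 reversed; Cyp4f14 kept both in all 156. Cyp4f16, Ppara and Ltb4r1 are dim under the 40th percentile filter and have no value there. The 1-day call of Cyp4f15 stayed under each of 11 settings that did not leave out a single array (adjusted p up to 0.0497, with arrays centred on their medians), and in 14 of 20 fits without 1 array, with differences of 0.30 to 0.37. The 6 fits that ended the call each left out an array of the 1-day comparison. Of those arrays only celastrol replicate 3 could be left out with the call kept. Leaving out an array of another group kept the difference at 0.33. Over all groups the replicate numbers did not pair the samples, since same-numbered arrays had residual correlations of -0.356 to 0.518 (median 0.0102). A block for DMSO of 6 h and 1 day alone, whose numbers did pair, gave 59 genes there and left Cyp4f15 uncalled. With the number as a replicate block over all groups, Cyp4f15 differed by 0.36 at 1 day (adjusted p = 0.0317), 70 genes were called there, 0 in the test of the difference between 6 h and 1 day, and Cyp4f13 at 6 h was 0.012; the block changed no call of a Cyp4 gene.

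The Cyp4f15 DMSO difference from 6 h to 1 day became a call at -0.33 with the 40th percentile filter and with an intensity trend and at -0.37 with array weights, each making 1 Cyp4 gene called. Of 20 fits without 1 array, 0 made it a call. The difference between the celastrol effects at 1 day and 6 h became one at 0.53 with the trend and 0.59 with weights, again 1 Cyp4 gene, and lay between 0.48 and 0.58 without 1 array, with 0 to 1 Cyp4 genes called, as at 1 day.

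Counts over all genes moved more. With arrays quantile normalized again 5 genes were called at 4 days and 46 in DMSO from 6 h to 1 day. With no filter these were 2 and 24, and 47 in celastrol from 6 h to 1 day. The stricter filter gave 56 and 36 for DMSO and celastrol over time, and the trend 78 and 54, with 4 for the difference of effects. Array weights gave 196 at 1 day, 20 at 4 days, 24 and 102 over time and 2 for the difference of effects. Fitting only the groups compared gave 2 at 4 days, 0 and 10 over time and 0 for the difference of effects. Without both arrays that stood apart 1 and 211 were called over time, and with the arrays of 6 h and 1 day alone 2 in celastrol over time and 0 for the difference of effects. Without 1 array the counts ran from 0 to 6 at 6 h, 18 to 85 at 1 day, 0 to 20 at 4 days, 1 to 47 in DMSO and 1 to 89 in celastrol over time, and 0 to 3 for the difference of effects.

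Differences near 0 of uncalled members changed sign. Without 1 array Cyp4f13 ran from -0.073 to 0.033 at 6 h, -0.088 to 0.017 in DMSO and -0.0045 to 0.073 in celastrol over time. Cyp4f16 ran from -0.17 to 0.025 at 1 day, -0.082 to 0.050 in DMSO and -0.0066 to 0.19 in celastrol over time. Cyp4x1 ran from -0.0072 to 0.11 in DMSO over time and -0.047 to 0.074 in the difference of effects. With centred arrays Cyp4f13 was -0.0016 in celastrol over time and Cyp4x1 -0.022 in the difference of effects, or -0.038 with arrays quantile normalized again. The cause of these changes was not tested.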
